A study of Mus musculus with 4 samples.

Results

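CD27, the receptor bound by the agonist antibody of this study, its ligand CD70 and 3 proteins that act on the receptor's cytoplasmic tail were followed at the RNA level in spleens of lymphoma-bearing mice. The members are the genes Cd27, Cd70, Siva1, Traf2 and Traf5, chosen by name for their place in CD27 signaling, and they are 5 of the 17252 genes in the deposited table. All 5 had at least 1 transcript in the cells kept, but Cd70 had 4 in all, too few for a ratio between libraries.

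The spleens came from BALB/c mice injected with 10000 cells of BCL1, a transplantable BALB/c B cell lymphoma that grows in the spleen, so every group carried the tumor. Per the labels, the combination group received anti-CD20 (clone 18B12, mouse IgG2a) on day 4, followed by the agonist anti-CD27 (clone AT124-1, rat IgG2a) on days 5 to 8. The anti-CD20 and anti-CD27 groups received 1 of these antibodies each, and the remaining group received isotype control antibody. Spleens were digested on day 13 and single cells were profiled by Drop-seq, in which every transcript counted carries the barcode of its cell and a molecular tag (UMI) that marks it as 1 molecule. Each treatment is 1 library, and the number of mice behind it is not given in the sources used here. In the deposited table the cells taken as isotype control carry the prefix PBS, and they were assigned to that group because the other 3 prefixes named the other 3 treatments. The single-cell methods of the study give other treatment days than the labels.

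CD27 is a costimulatory receptor of the tumor necrosis factor (TNF) receptor superfamily, known on naive T cells, subsets of memory and effector T cells, NK cells and some B cells. Its ligand CD70 appears transiently on activated T cells, B cells and dendritic cells. Ligand binding recruits the adaptors TRAF2 and TRAF5 to the receptor tail, which feeds the NF-kB and JNK pathways, and SIVA1 is a tail-binding protein linked to apoptosis.

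The stretch of Cd27 that encodes the TRAF-binding part of the tail is shown because TRAF2 and TRAF5 meet the receptor there. It lies at chr6:125233313-125233417 (GRCm38, minus strand) in exon 6, the last of the 6 coding exons of the GENCODE transcript used, and the capitals mark codons 236 to 240 of 250, which match the TRAF-binding motif known from human CD27.
Cd27 coding stretch: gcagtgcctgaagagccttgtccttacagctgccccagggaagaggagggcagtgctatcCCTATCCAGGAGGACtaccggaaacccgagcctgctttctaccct

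In GENCODE M21 (GRCm38), Cd27 spans chr6:125232622-125237010 on the minus strand and overlaps Vamp1 on the opposite strand. Cd70 lies at chr17:57145997-57149777 on the minus strand and Siva1 at chr12:112644679-112649149 on the plus strand, both with no overlapping gene. Traf2 lies at chr2:25517982-25546940 and Traf5 at chr1:191997205-192092559, both on the minus strand and both with a predicted gene on the opposite strand (Gm13433 for Traf2, Gm26879 for Traf5). On the same strand, Cd27 overlaps Mir8113, and Traf5 overlaps Mir3473c and Gstp-ps. Whether the counting used strand is not given in the sources used here, so reads of the opposite-strand pairs are uncertain. Reads of the same-strand pairs are uncertain either way.

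Of 3198 barcodes, 1770 with 300 to 3000 detected genes were kept, 432 in the combination, 501 in anti-CD20, 497 in anti-CD27 and 340 in the isotype control library. They held 917486, 939565, 908930 and 440710 UMIs in that order, so the isotype control library was the shallowest, at a median of 1031 UMIs per cell. No kept barcode sequence was shared between libraries. Marker genes named 10 classes, in each of which 7 to 16 listed markers were detected, and 13 cells stayed unnamed. B-like cells numbered 3 in the combination, 109 in anti-CD20, 183 in anti-CD27 and 179 in the isotype control library, and germinal center B-like cells numbered 1, 118, 11 and 46 in the same order. Normal B cells and lymphoma cells were not told apart within these classes. Since a treatment is represented by 1 library, nothing could be tested across mice, and the 95% intervals given with the values are those of counting error.

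Cd27 was detected at similar levels in all 4 libraries. It had 143 UMIs in 82 combination cells, 133 UMIs in 83 anti-CD20 cells, 125 UMIs in 67 anti-CD27 cells and 51 UMIs in 33 isotype control cells. Per 1000000 UMIs of the library (CPM) this was 156 (95% Poisson interval 131 to 184), 142 (119 to 168), 138 (114 to 164) and 116 (86.2 to 152) CPM in the same order. The intervals of all 4 libraries overlap. The log2 ratio was 0.14 for the combination over anti-CD20 (-0.21 to 0.49) and 0.25 for anti-CD27 over the isotype control (-0.23 to 0.75). The first ratio was 0.38 (0.01 to 0.77) when cells needed at least 500 genes, which excludes no change, and -0.11 (-0.44 to 0.23) when deep barcodes with more than 3000 genes were counted as well.

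**Figure D1:**
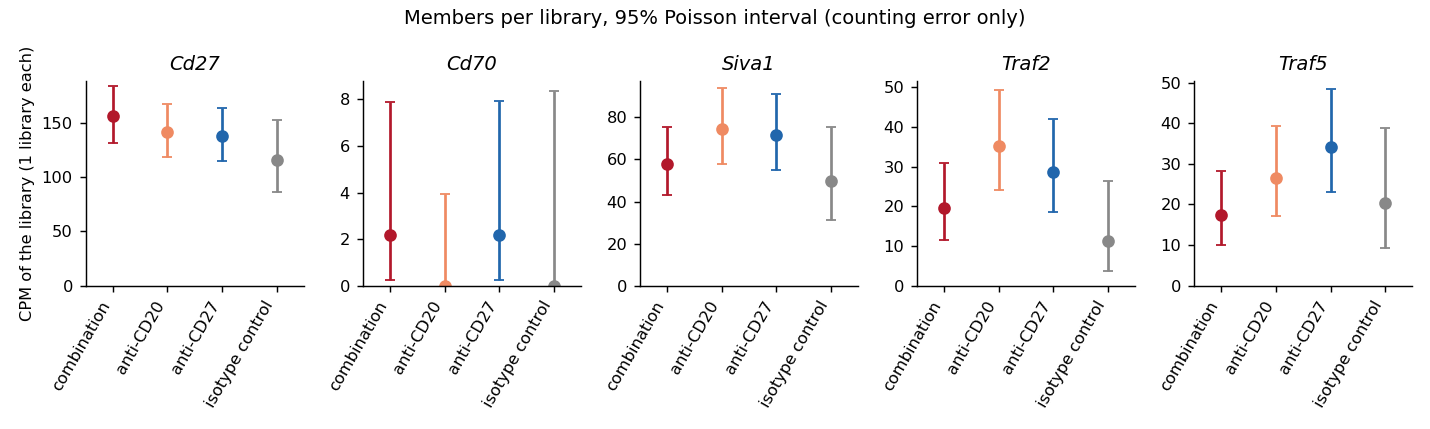
Level of each member in the 4 libraries, in CPM of the library (points, 1 library each) with 95% Poisson intervals (bars, counting error only). Each panel has its own vertical axis from 0. Cd27 lies between 116 and 156 CPM, and Cd70 has UMIs only in the combination and anti-CD27 libraries.

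Cd70, the ligand, had 4 UMIs among all kept cells. They lay in 3 cells, 2 from the combination with 1 UMI each and 1 from anti-CD27 with 2 UMIs. No UMI was seen in 501 anti-CD20 cells, which allows a share of up to 0.599% of cells with a UMI, nor in 340 isotype control cells, which allows up to 0.882%. The limits are not below the shares seen in the combination (0.463%) and anti-CD27 (0.201%), so a difference was not detectable at this depth. All 3 cells held a UMI of Mki67 or Top2a, genes of dividing cells, and fell in the class named effector CD8 T-like, carried Cd8 transcripts and no Cd4 transcript, and had 8446, 3899 and 7521 UMIs, against a class median of 1755 UMIs. Cd27 itself was present in 2 of these 3 cells. Of the 132 effector CD8 T-like cells, 26 were at least as deep as the shallowest of the 3. Neither B-like, germinal center B-like nor dendritic-like cells had a Cd70 UMI.

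Siva1, the apoptosis-linked tail binder, had 53 UMIs in the combination, 70 in anti-CD20, 65 in anti-CD27 and 22 in the isotype control library, or 57.8, 74.5, 71.5 and 49.9 CPM. Its log2 ratio was -0.37 (-0.91 to 0.17) for the combination over anti-CD20 and 0.52 (-0.20 to 1.29) for anti-CD27 over the isotype control, and neither interval excludes no change. This gene was denser in the barcodes with more than 3000 genes, at 193 CPM in 30 combination barcodes and 157 CPM in 5 anti-CD20 barcodes, against the levels above in kept cells. With those barcodes included, the ratio of the combination over anti-CD20 was 0.36 (-0.05 to 0.77), so its direction rests on the upper limit of genes per barcode.

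Traf2 and Traf5, the adaptors, were sparse. Traf2 had 18 UMIs in the combination, 33 in anti-CD20, 26 in anti-CD27 and 5 in the isotype control library, or 19.6, 35.1, 28.6 and 11.3 CPM. Its log2 ratio was -0.84 (-1.76 to 0.03) for the combination over anti-CD20, 1.33 (-0.07 to 3.07) for anti-CD27 over the isotype control and 1.63 (0.26 to 3.34) for anti-CD20 over the isotype control. The last interval excludes no change, but it includes it once cells need at least 500 genes (1.24, -0.16 to 2.97). Traf5 had 16, 25, 31 and 9 UMIs, or 17.4, 26.6, 34.1 and 20.4 CPM, in the combination, anti-CD20, anti-CD27 and isotype control libraries. Its log2 ratio was -0.61 (-1.61 to 0.35) for the combination over anti-CD20 and 0.74 (-0.37 to 2.0) for anti-CD27 over the isotype control. For the combination over anti-CD27 it was -0.97 (-1.94 to -0.05), an interval that includes no change when cells need at least 500 genes (-0.90, -1.92 to 0.06).

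A gene was called when it had at least 10 UMIs in a pair of libraries, differed at least 2-fold and had an interval without no change. For the combination over anti-CD20, 9.54% of 10365 genes were called higher and 8.55% lower, and none of the 4 members with enough UMIs was called. For anti-CD27 over the isotype control, 6.15% of 9585 genes were called higher and 6.42% lower, and again 0 of 4 members were called. For the combination over anti-CD27, 3.75% of genes were called higher and 3.94% lower, with 0 of 4 members. For anti-CD20 over the isotype control, 2.84% were called higher and 3.32% lower, and 1 of 4 members, Traf2, was called higher. These pairs share libraries, so the ratios of a member are not independent of each other.

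The cell type that carried the receptor transcript was the T cell. Pooled over libraries, the T-like class held 285 of the 452 Cd27 UMIs and the effector CD8 T-like class held 132, together 92.3% (Clopper-Pearson 95% interval 89.4 to 94.5%) of the UMIs in 31.8% of the cells. Cd27 stood at 567 CPM (503 to 637) in 431 T-like cells and 411 CPM (344 to 488) in 132 effector CD8 T-like cells. NK-like cells followed at 90.6 CPM (33.2 to 197, 6 UMIs in 46 cells), erythroid-like cells at 35.0 CPM (17.5 to 62.7) and B-like cells at 20.7 CPM (11.04 to 35.4). The intervals of these last 3 overlap, and no ratio between them was computed. Macrophage/monocyte-like and granulocyte-like cells had 1 UMI each in 166 and 139 cells. No Cd27 UMI was found in 176 germinal center B-like cells, which allows up to 6.99 CPM. The T-like level of 567 CPM was 81.0-fold that limit, a value that leaves out the error of the T-like count. The 63 dendritic-like cells had none either, which allows up to 22.8 CPM.

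As a share of cells with a UMI, Cd27 was seen in 39.0% of T-like cells (34.3 to 43.8%, median 974 UMIs per cell) and in 2.32% of B-like cells (1.16 to 4.11%, median 1039 UMIs). After each cell was thinned to 400 UMIs the shares were 21.1% of T-like and 0.851% of B-like cells. The effector CD8 T-like class was deeper, at a median of 1755 UMIs, and its share was 51.5% before and 15.2% after thinning. The erythroid-like share, 7.84% at a median of 2727 UMIs, was 2.97% (0.617 to 8.44%) after thinning, and 3 of the 8 erythroid-like cells with Cd27 also held a Cd3 transcript. The part of free RNA in these low shares was not tested. Single cells held few copies: 96 T-like cells had 1 UMI of Cd27, 40 had 2 and 32 had 3 or more, with at most 6 in 1 T-like cell and 7 in 1 effector CD8 T-like cell.

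**Figure D2:**
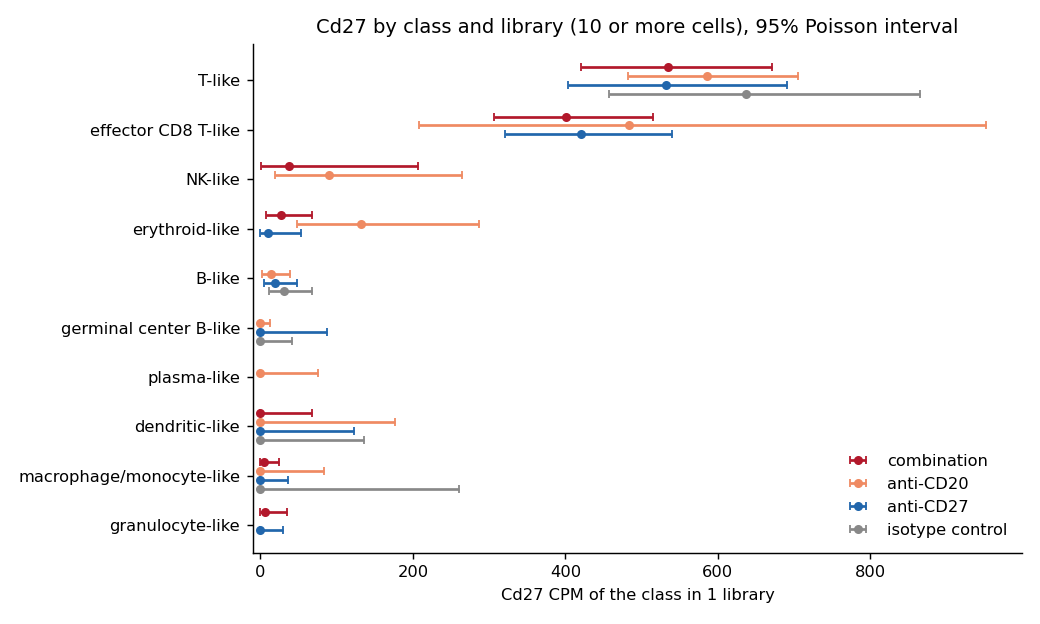
Cd27 level (CPM, horizontal axis) of each cell class in each library with at least 10 cells of the class; bars are 95% Poisson intervals of counting error. Both T cell classes lie at 401 CPM or more in every library shown, and all other classes lie at 132 CPM or less.

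Within each T cell class the libraries did not differ in Cd27 beyond counting error. T-like cells had 535 CPM of Cd27 in the combination (75 UMIs, 121 cells), 585 in anti-CD20 (112 UMIs, 160 cells), 533 in anti-CD27 (57 UMIs, 89 cells) and 637 in the isotype control library (41 UMIs, 61 cells). All 4 intervals overlap, and the log2 ratios were -0.13 (-0.57 to 0.31) for the combination over anti-CD20 and -0.26 (-0.86 to 0.36) for anti-CD27 over the isotype control. Effector CD8 T-like cells had 401 CPM in the combination (61 UMIs, 59 cells), 483 in anti-CD20 (8 UMIs, 13 cells) and 420 in anti-CD27 (61 UMIs, 58 cells), while the isotype control library had 2 such cells. For the combination over anti-CD27 the ratio in this class was -0.07 (-0.60 to 0.47).

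What differed was which T cells carried the transcript. The effector CD8 T-like class held 42.7% (34.4 to 51.2%) of Cd27 UMIs in the combination, against 6.02% (2.63 to 11.5%) in anti-CD20, and 48.8% (39.8 to 57.9%) in anti-CD27, against 3.92% (0.479 to 13.5%) in the isotype control. The class made up 13.7% of cells in the combination, against 2.59% in anti-CD20, and 11.7% in anti-CD27, against 0.588% in the isotype control. Both T cell classes together were 41.7% of cells in the combination, against 34.5% in anti-CD20, and 29.6% in anti-CD27, against 18.5% in the isotype control. Their pooled Cd27 level ran the other way, 465 CPM in the combination, against 577 CPM in anti-CD20, and 468 CPM in anti-CD27, against 602 CPM in the isotype control. The log2 ratios were -0.31 (-0.68 to 0.06) and -0.36 (-0.88 to 0.18), and both intervals include no change. The grouping of the 2 T cell classes was made after the values were seen. The class drawn by clusters held 29.2% of all Cd27 UMIs, and 8.85% where each cell was classed by its own marker transcripts, so these shares depend on how effector cells are named.

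**Figure D3:**
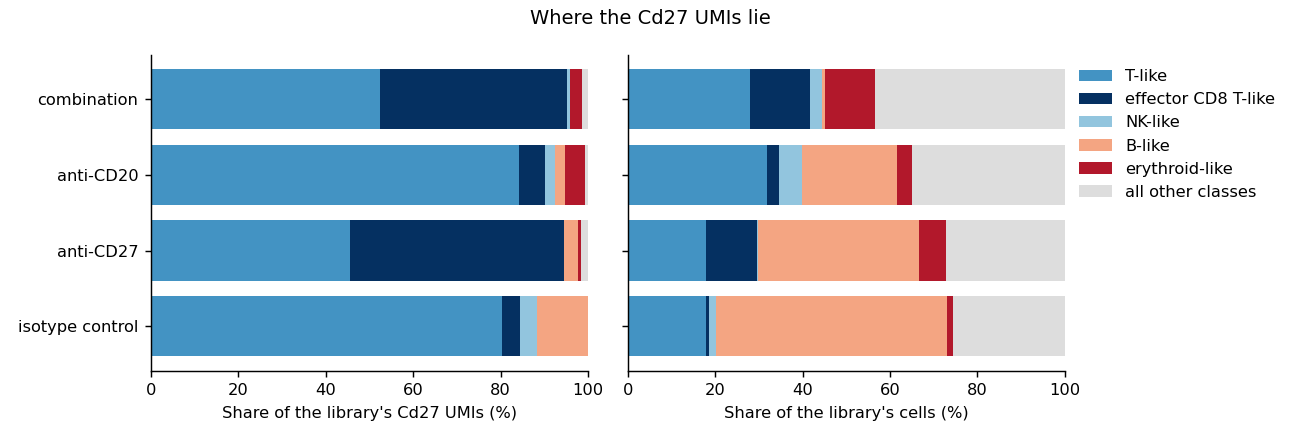
Left, percent of each library's Cd27 UMIs that lie in each class; right, percent of each library's cells in the same classes. The effector CD8 T-like segment holds 42.7% of Cd27 UMIs in the combination and 48.8% in anti-CD27, against 6.02% in anti-CD20 and 3.92% in the isotype control.

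Cd27 was lower in effector CD8 T-like than in T-like cells when the libraries were pooled, with a log2 ratio of -0.46 (-0.77 to -0.16). Within a library the ratio was -0.42 (-0.93 to 0.09) in the combination, -0.28 (-1.52 to 0.75) in anti-CD20 and -0.34 (-0.89 to 0.20) in anti-CD27, each with an interval that includes no change. Where each cell was instead classed by its own marker transcripts the ratio was 0.14 (-0.37 to 0.62), so the order of these 2 classes depends on how effector cells are named. Among cells of both classes with a Cd8 transcript and no Cd4 transcript, Cd27 stood at 494 CPM in the combination (68 cells), against 763 CPM in anti-CD20 (57 cells), a log2 ratio of -0.63 (-1.17 to -0.08). The effector class gave 55.9% of those cells in the combination, against 14.0% in anti-CD20. Split by class, these cells had 433 CPM in the effector and 649 CPM in the T-like class of the combination, against 402 CPM (4 UMIs) and 822 CPM in anti-CD20. In anti-CD27 the CD8 cells had 485 CPM (72 UMIs, 64 cells), against 592 CPM in the isotype control (13 UMIs, 15 cells). Many ratios were compared, so a few may exclude no change by counting error alone. Cells with a Cd4 transcript and no Cd8 transcript had 280 CPM in the combination (29 cells), against 394 CPM in anti-CD20 (35 cells), with an interval that includes no change (-1.50 to 0.50). Pooled over libraries, CD8 cells exceeded CD4 cells in Cd27, at 547 CPM against 394 CPM and a log2 ratio of 0.48 (0.07 to 0.90), with ratios from -0.08 in anti-CD27 to 0.95 in anti-CD20. Cells with a Foxp3 transcript, the regulator of regulatory T cells, had 496 CPM (19 UMIs, 18 cells).

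Among the genes whose pattern was most like Cd27, over 20 combinations of class and library with at least 20 cells, were Cd3g, a chain of the T cell receptor complex (Pearson r = 0.97 on log2 CPM), Trbc2, a T cell receptor constant region (0.97), Prkcq, a kinase of T cell receptor signaling (0.96), and Lef1, a transcription factor of naive T cells (0.95). These points share libraries and the genes were ranked among 5260, so the values describe likeness only. Cd3g, Trbc2 and Lef1 were also among the markers that named the T-like class, so their likeness restates that Cd27 was high in T cell classes.

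The partners of the receptor were not confined to T cells. Siva1 was highest in erythroid-like cells at 131 CPM (93.7 to 177), germinal center B-like cells at 121 CPM (90.6 to 159) and effector CD8 T-like cells at 93.5 CPM (63.1 to 133), followed by NK-like cells at 90.6 CPM (33.2 to 197) and macrophage/monocyte-like cells at 78.0 CPM (52.6 to 111), with overlapping intervals throughout these 5. It was lowest in B-like cells at 25.5 CPM (14.6 to 41.4) and T-like cells at 21.9 CPM (10.9 to 39.1). Effector CD8 T-like exceeded T-like cells by a log2 ratio of 2.09 (1.06 to 3.24) pooled, by 3.47 (0.71 to 8.88) in the combination, on 12 UMIs against 1, and by 1.73 (0.13 to 3.75) in anti-CD27, on 18 UMIs against 4. In anti-CD20 the 13 effector cells had no Siva1 UMI. As many as 7 of the 30 effector UMIs lay in 1 cell, and the level taken as a mean over effector cells was 59.97 CPM. Germinal center B-like exceeded B-like cells by 2.25 (1.42 to 3.16) pooled, and by 2.38 (1.14 to 3.91) in anti-CD20, where 118 such cells were found. Where each cell was classed by its own marker transcripts, Siva1 stood at 53.6 CPM in effector CD8 T-like and 46.5 CPM in T-like cells, and at 102 CPM in germinal center B-like and 57.3 CPM in B-like cells, so the size of both differences depends on how the classes are drawn.

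**Figure D4:**
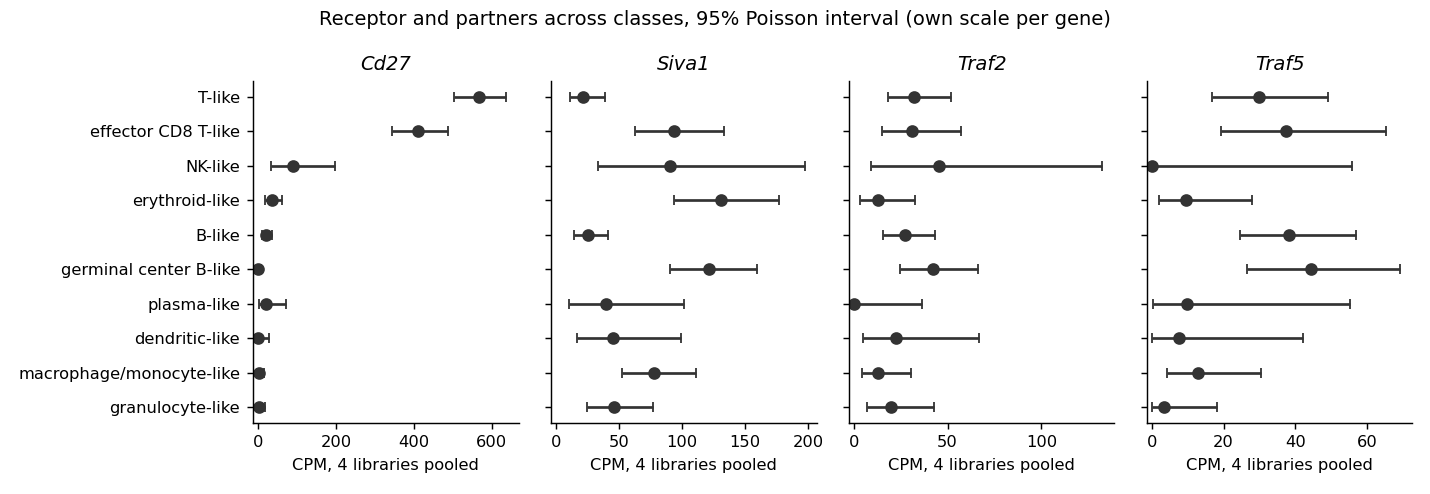
Cd27, Siva1, Traf2 and Traf5 across 10 cell classes, 4 libraries pooled, in CPM (points) with 95% Poisson intervals (bars). Each gene has its own horizontal axis. Cd27 stands out in the 2 T cell classes, Siva1 ranges from 21.9 CPM in T-like to 131 CPM in erythroid-like cells, and the Traf2 and Traf5 intervals of most classes overlap.

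Traf2 had 42.0 CPM in germinal center B-like (18 UMIs) and 45.3 CPM in NK-like cells (3 UMIs) at the top of its range. Erythroid-like cells had 12.7 CPM (4 UMIs) and macrophage/monocyte-like cells 13.0 CPM (5 UMIs). The T cell classes lay between, with 31.8 CPM (18.2 to 51.7) in T-like and 31.2 CPM (14.9 to 57.3) in effector cells. The 28 plasma-like cells had 0 UMIs, and the order of the classes rests on these small counts. The 5 UMIs of the isotype control library were 3 in B-like and 2 in germinal center B-like cells, and none of its 63 T cells of either class had one, which allows up to 42.0 CPM. Traf5 ran from 44.3 CPM (26.7 to 69.2) in germinal center B-like and 38.3 CPM (24.5 to 56.9) in B-like cells, through 37.4 CPM (19.3 to 65.3) in effector CD8 T-like and 29.8 CPM (16.7 to 49.2) in T-like cells, to 3.27 CPM (0.083 to 18.2) in granulocyte-like cells and 0 UMIs in 46 NK-like cells, which allows up to 45.3 CPM. In germinal center B-like cells, classing by own markers gave 81.9 CPM for Traf2 and 20.5 CPM for Traf5, and a mean over cells gave 74.6 CPM for Traf5, so the place of this class in either order is uncertain. In B-like cells it had 61.8 CPM in anti-CD27 (13 UMIs, 183 cells), against 15.7 CPM in the isotype control (3 UMIs, 179 cells), a log2 ratio of 1.98 (0.12 to 4.43). That interval includes no change under 4 other ways of drawing the classes, which gave 0.63 to 1.60. In T-like cells the combination over anti-CD20 ratio was -0.97 for Traf2 on 3 against 8 UMIs, and 0.13 for Traf5 on 4 against 5 UMIs.

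Outside the T cell classes a few ratios excluded no change, most of them on small counts. They were picked from many, since all members were compared in each of 4 pairs wherever cell numbers allowed. Most of those intervals included no change, and with 95% intervals a few may exclude it by counting error alone. Cd27 in erythroid-like cells had 4 UMIs in the combination, against 6 in anti-CD20 (-2.31, -4.58 to -0.23), and Siva1 in granulocyte-like cells had 2 UMIs in the combination, against 10 in anti-CD27 (-2.68, -5.91 to -0.45). Over all cells outside the T cell classes, Traf5 had 7 UMIs in the combination, against 19 in anti-CD27 (-1.37, -2.86 to -0.06), and Siva1 had 67 UMIs in anti-CD20, against 19 in the isotype control (0.83, 0.08 to 1.65).

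Few cells held the receptor together with a partner. Among 168 T-like cells with a Cd27 UMI, 5 also had Siva1, 8 had Traf2 and 8 had Traf5. Among 263 T-like cells without Cd27 the numbers were 6, 8 and 6. Cells with Cd27 were deeper, at a median of 1259 UMIs, against 865 UMIs in cells without. In effector CD8 T-like cells, 15 of 68 cells with Cd27 had Siva1 (22.1%, 12.9 to 33.8%), against 4 of 64 cells without (6.25%, 1.73 to 15.2%), at median depths of 2354 and 1169 UMIs. The part of depth in this difference was not tested.

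Siva1 was denser in cells with transcripts of dividing cells. In the 477 cells with a UMI of Mki67 or Top2a, genes of dividing cells, Siva1 stood at 100.4 CPM (141 UMIs), against 38.3 CPM (69 UMIs) in the other 1293 cells, a log2 ratio of 1.39 (0.97 to 1.83). The ratio was 1.63 in the combination, 1.55 in anti-CD20 and 1.36 in anti-CD27, with intervals that exclude no change, and 0.57 (-0.89 to 1.92) in the isotype control library. Cells with these UMIs were also deeper, at a median of 2474 against 1086 UMIs. Such cells were 73.5% of erythroid-like, 67.6% of germinal center B-like and 57.6% of effector CD8 T-like cells, the 3 classes highest in Siva1. They were 11.4% of T-like and 8.02% of B-like cells. Not all classes followed this order. Among plasma-like cells 14 of 28 were such cells, and all 4 Siva1 UMIs lay in the others. Macrophage/monocyte-like cells, at 20.5%, stood at 78.0 CPM of Siva1. Granulocyte-like and dendritic-like cells had higher shares, 26.6% and 28.6%. Their Siva1 level was lower, at most 67.0 CPM even in their cells with these UMIs. Within each class for which a ratio was computed the interval includes no change, with 1.51 (-0.19 to 3.87) in effector CD8 T-like and 0.39 (-0.77 to 1.79) in germinal center B-like cells. Among the genes most like Siva1 across classes were Ncapg2, a condensin subunit (r = 0.83), and Eif4h, a translation factor (0.80). Cd27 ran the other way when the libraries were pooled, at 107 CPM in cells with these UMIs, against 168 CPM in the others (-0.65, -0.94 to -0.36). Per library its ratio was -3.24 (-6.32 to -1.31, on 2 against 49 UMIs) in the isotype control and -1.91 (-2.64 to -1.24) in anti-CD20. In the combination it was -0.41 (-0.92 to 0.08) and in anti-CD27 0.31 (-0.22 to 0.84), and both intervals include no change. Within T-like and effector CD8 T-like cells the pooled Cd27 ratio was -0.11 (-0.63 to 0.37) and -0.30 (-0.86 to 0.29). For Traf2 and Traf5 the interval of the same ratio includes no change, at 0.01 (-0.67 to 0.67) and -0.41 (-1.11 to 0.27). This split was chosen after the values were seen.

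**Figure D5:**
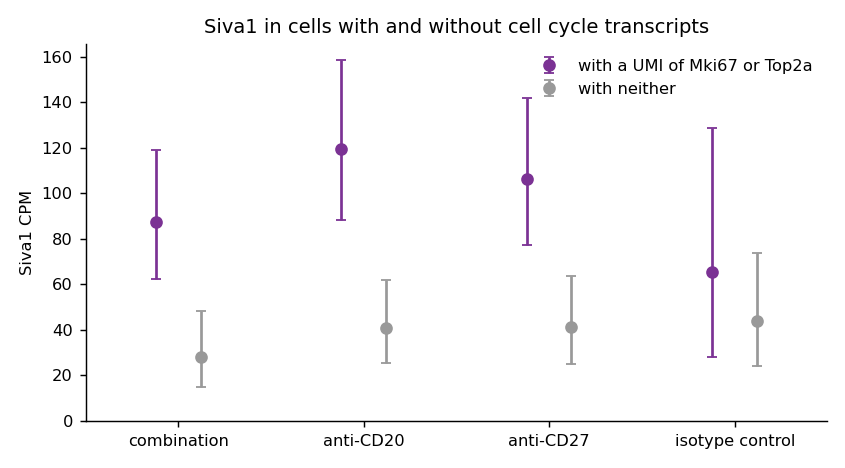
Siva1 level (CPM, vertical axis from 0) in cells with a UMI of Mki67 or Top2a (purple) and in cells with neither (grey), per library, with 95% Poisson intervals. The 2 levels are apart in the combination, anti-CD20 and anti-CD27 libraries, and the intervals overlap in the isotype control.

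The Siva1 promoter is shown because E2F factors drive many genes of dividing cells and their binding motif could be searched. Whether E2F factors bind there or act on Siva1 was not tested. Of the motifs TTTCCCGC and TTTGGCGC, on both strands, the first occurs once in the 300-base RefSeq window of Siva1 (GRCm38.p6), at position -121 from the start, and the second does not. The first is found in 1.11% and the second in 0.537% of 27025 such windows, and neither in those of Cd27, Traf2 or Traf5. The stretch lies at chr12:112644696-112644725 on the plus strand, inside the longer GENCODE gene, and the capitals mark the motif.
Siva1 promoter stretch: gcccttggcctTTTCCCGCgccctgcattc

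Other genes of the pathway were read from 5 lists, whose counts of called genes stand against the shares of all genes called, 9.54% higher and 8.55% lower for the combination over anti-CD20 and 6.15% higher and 6.42% lower for anti-CD27 over the isotype control. Of 14 further TRAF adaptors and inhibitors, all measured in both main pairs, Tnfaip3, a feedback inhibitor of NF-kB, was the only one called. It had 30.5 CPM in the combination, against 14.9 CPM in anti-CD20 (log2 ratio 1.03, 0.06 to 2.07), and 33.0 CPM in anti-CD27, against 11.3 CPM in the isotype control (1.54, 0.16 to 3.26). The list median was -0.15 and -0.06 in these 2 pairs, where the median of all genes tested was -0.06 and -0.09. Macrophage/monocyte-like cells held 24.7% and effector CD8 T-like cells 18.2% of Tnfaip3 UMIs. The 3 most abundant genes of the list, Traf3ip3, Tank and Cyld, were below 2-fold. Traf3ip3 was lower in both pairs, at -0.46 (-0.82 to -0.11) and -0.42 (-0.78 to -0.06). Cyld was lower in the first, at -0.62 (-1.02 to -0.22), and its interval in the second includes no change, as do both of Tank. Of 23 NF-kB and JNK genes, none was called for the combination over anti-CD20, and only Rel, an NF-kB subunit, was called for anti-CD27 over the isotype control, lower at 70.4 CPM against 165.6 CPM (-1.23, -1.74 to -0.73). Its ratio in the other pair was -0.88, and the B-like class held 40.6% of its UMIs. Nfkbia, the NF-kB inhibitor that NF-kB itself induces, stood at 452 CPM in the combination, against 317 CPM in anti-CD20 (0.51, 0.29 to 0.73), and at 469 CPM in anti-CD27, against 306 CPM in the isotype control (0.61, 0.33 to 0.90), below the 2-fold limit. Junb, an AP-1 subunit, had ratios of 0.92 (0.56 to 1.28) and 0.51 (0.07 to 0.98), with 34.8% of its UMIs in granulocyte-like cells. The list medians were -0.03 and -0.14.

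Among 13 survival and death genes linked to CD27, 4 were called for the combination over anti-CD20 and 2 for anti-CD27 over the isotype control. Bcl2a1a, an anti-apoptotic gene, was higher by 2.52 (1.76 to 3.36) and 2.13 (0.999 to 3.498), and Bcl2a1d by 1.01 (0.31 to 1.73) in the first pair, against -0.41 in the second, but these near-identical copies share reads and their split is uncertain. Macrophage/monocyte-like cells held 55.5% of Bcl2a1a UMIs. Bcl2 was lower in the first pair, at 38.1 CPM in the combination, against 105 CPM in anti-CD20 (-1.47, -2.07 to -0.90), and below 2-fold in the second (-0.82), with 40.0% of its UMIs in T-like and 38.2% in B-like cells. The list medians were 0.25 and -0.06. Mcl1, Pim1 and Bax, its most abundant members, had intervals that include no change in both pairs.

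Of 13 other receptors of the TNF receptor superfamily, 12 could be measured, and 4 were called higher and 2 lower for the combination over anti-CD20, against 4 higher and 1 lower for anti-CD27 over the isotype control. Tnfrsf9, the costimulatory receptor 4-1BB, had 64.3 CPM in the combination, against 22.4 CPM in anti-CD20 (1.52, 0.78 to 2.32; 0.37 as a mean over cells), and 44 UMIs in anti-CD27, against 3 UMIs in the isotype control (2.83, 1.19 to 5.16). The effector CD8 T-like class held 54.3% of its UMIs. Tnfrsf4 (OX40) and Tnfrsf18 (GITR), costimulatory receptors with 75.6% and 59.6% of their UMIs in T-like cells, were higher for anti-CD27 over the isotype control, by 1.37 (0.09 to 2.92) and 1.46 (0.42 to 2.67). For the combination over anti-CD20 neither was called, at 0.99 for Tnfrsf4 and -0.15 for Tnfrsf18. Tnfrsf1a, the first TNF receptor, was higher in both pairs, by 1.44 and 1.57, and Tnfrsf1b, the second, and Ltbr, the lymphotoxin receptor, were higher in the first, by 1.53 and 2.23, and not called in the second, at -0.28 and 0.54. Macrophage/monocyte-like cells, which were 20.1% of combination and 4.19% of anti-CD20 cells, held 47.2 to 53.5% of the UMIs of these 3. Tnfrsf13c, the BAFF receptor of B cells, had 0 UMIs in the combination, against 225 UMIs in anti-CD20, and the interval of its log2 ratio lay below -5.88. For anti-CD27 over the isotype control its log2 ratio was -1.63 (-1.97 to -1.29). Tnfrsf13b (TACI) was lower in the first pair (-1.81, -2.40 to -1.25) and below 2-fold in the second (-0.91), and Cd40 had intervals that include no change. The medians were 0.20 and 0.21. Of 14 ligands, 8 and 7 could be measured. Lta was lower in the combination, at 7.63 CPM against 45.8 CPM in anti-CD20 (-2.58, -3.98 to -1.42), and Tnfsf10 (TRAIL) was higher (1.26, 0.07 to 2.57). In the second pair neither was called, at -0.97 and -0.20. B-like cells held 49.4% and germinal center B-like cells 34.5% of Lta UMIs, and the combination had 3 and 1 cells of these classes, against 109 and 118 in anti-CD20. Fasl, a cytotoxic ligand with 66.7% of its UMIs in effector CD8 T-like cells, had 24 UMIs in anti-CD27, against 1 UMI in the isotype control (3.54, 0.92 to 8.90), and Tnfsf14 (LIGHT) had 22 against 2 (2.42, 0.39 to 5.55). Neither was called for the combination over anti-CD20, at 0.55 for Fasl and 0.19 (-0.62 to 1.01) for Tnfsf14, and Tnfsf14 also had 26 UMIs in anti-CD20, against 2 in the isotype control (2.61, 0.61 to 5.73). Ltb, the most abundant ligand, had ratios of -0.50 and 0.04, and the list medians were 0.20 and 0.04.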

How the data were processed

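Spleen cells from 4 libraries, 1 per treatment, were measured by Drop-seq. The authors aligned reads to mm10 with STAR 2.5.0a, collapsed UMIs with Dropseq-tools and deposited raw UMI counts, as whole numbers up to 2416, with barcodes outside the study's gene limits still present. Here, barcodes with 300 to 3000 detected genes were kept, and 2000 variable genes without the members and the pathway lists, 30 principal components, 15 neighbours and Leiden clustering at resolution 1 (scanpy 1.11.5, leidenalg 0.10.2) gave clusters, named by at least 3 markers among their top 30 genes. Library effects were not removed, because they cannot be told apart from treatment. Doublets called by Scrublet (16 barcodes) were kept and left out as an alternative. Counts were summed per library or class and given as CPM. Depth was 440710 to 939565 UMIs per library. Intervals (95%) were Poisson, Clopper-Pearson, exact binomial for ratios and, for differences of ratios, a normal approximation on log counts. These intervals and the floor of 3 counts cover counting error only. A class ratio needed 10 cells in both libraries. List medians used genes with at least 10 UMIs and a pseudocount of 10 CPM. The ratio interval was run only on simulated Poisson counts, which follow its own model and leave out clustering of UMIs within cells. Named genes were the members, the 3 most abundant genes of each list and those called in a main pair (the combination over anti-CD20, anti-CD27 over the isotype control), and the genes most like Cd27 (5) and Siva1 (3) in Pearson correlation. Alternatives were TMM factors (edgeR 4.0.16), other gene limits, totals, clusterings, classes by own markers, means over cells and thinning to 800 UMIs. Members, lists and markers were chosen with earlier results of these data known. Sequences came from GENCODE M21 and RefSeq (promoters of 4 of the 5 members). Some genes that this rule names are not reported here.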

Additional observations from a re-analysis of the deposited data

Results flagged for a closer look

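The log2 ratio of the library with over the library without anti-CD27 had opposite signs with and without anti-CD20 for Traf2 and Siva1. The interval of each of these ratios alone includes no change. For Traf2 the log2 ratio was -0.84 for the combination over anti-CD20 and 1.33 for anti-CD27 over the isotype control, a difference of -2.17 (95% interval -3.78 to -0.56, counting error only). Its isotype control value rests on 5 UMIs, and with at least 500 genes per cell the difference was -1.60 (-3.26 to 0.06). For Siva1 the ratios were -0.37 and 0.52, a difference of -0.89 (-1.75 to -0.02), which was -0.08 (-0.76 to 0.60) once barcodes with more than 3000 genes were counted. The interval also included no difference without called doublets (-1.73 to 0.01), without the cell with most UMIs in each library (-1.77 to 0.05) and without near-identical barcodes (-1.72 to 0.01). For Traf5 the difference was -1.35 (-2.75 to 0.05) and for Cd27 -0.11 (-0.69 to 0.47). In anti-CD20, 42 of 70 Siva1 UMIs lay in germinal center B-like cells, and 14 and 9 of 33 Traf2 UMIs in germinal center B-like and B-like cells. The combination had 1 and 3 cells of these classes, with 0 UMIs of either gene. The part of this make-up in the Traf2 and Siva1 differences was not tested. With 1 library per treatment none of these differences could be tested against the spread between mice.

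Barcodes with more than 3000 genes, which the comparisons leave out, carried Cd27 in the anti-CD27 library at 142 CPM (94.7 to 206, 28 UMIs in 14 barcodes), against 0 UMIs in 2 isotype control barcodes, which allows up to 62.4 CPM. The combination had 54.7 CPM in 30 such barcodes, against 0 UMIs in 5 anti-CD20 barcodes, which allows up to 42.7 CPM.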

How the results depend on the processing

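Of 1015 values recomputed under another setting, 980 stayed within the 95% interval of the reported value (or, for counts of genes, within 1.5 times it), 34 left it and 1 value whose interval excludes no change turned its direction. No upper limit on genes moved the Siva1 ratio of the combination over anti-CD20 to 0.36. Classing each cell by its own markers moved Cd27 to 486 CPM in T-like and 536 CPM in effector CD8 T-like cells, moved the shares of Cd27 UMIs they hold to 73.9% and 8.85%, and turned the effector over T-like ratio to 0.14. The causes were not tested. TMM factors shifted all genes by 0.08 for the combination over anti-CD20 and by 0.17 for anti-CD27 over the isotype control, and raised the TRAF list's calls for anti-CD27 over the isotype control to 2, against 1. Across settings the Cd27 ratio ran from -0.13 to 0.38 in the first pair and from 0.12 to 0.42 in the second, and in T-like cells from -0.38 to 0.11 and from -0.53 to -0.002. The settings tried on the difference of ratios with and without anti-CD20, on the split by Mki67 or Top2a and on the ratios between classes were chosen after seeing the data. No paired analysis was possible because each treatment is 1 library. Depth limits Cd70, Traf2 and Traf5 most, with 4, 82 and 81 UMIs in all.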
